A study of Homo sapiens with 42 samples.

Results

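Retinoic acid, the active form of vitamin A, is made inside cells and acts on genes through nuclear receptors. Retinol is oxidised to retinaldehyde, and the retinaldehyde dehydrogenases ALDH1A1, ALDH1A2 and ALDH1A3 oxidise retinaldehyde irreversibly to retinoic acid, while DHRS3 reduces retinaldehyde back to retinol. CRABP2 carries retinoic acid to the nucleus, where the receptors RARA, RARB and RARG bind direct repeats on DNA as heterodimers with retinoid X receptors, and the cytochrome P450 enzymes CYP26A1 and CYP26B1 degrade retinoic acid. RARB, CYP26A1 and DHRS3 are well known to be induced by retinoic acid itself, and high aldehyde dehydrogenase activity is widely used to mark stem-like and drug-tolerant cells in epithelial tumours, lung adenocarcinoma included.

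Chromatin accessibility at these 10 genes was followed by ATAC-seq, in which a transposase cuts and tags open DNA, in 4 EGFR-mutant lung adenocarcinoma cell lines. The members were all regions that the submitters' annotation assigned to 1 of the 10 genes, 291 of 242490 annotated regions. They were 85 regions of 69565 in PC9, 86 of 76952 in H1975, 35 of 30709 in HCC827 and 85 of 65264 in HCC2935. No region was assigned to ALDH1A1 in PC9, to CYP26A1 in HCC827 or to RARB in HCC2935. ALDH1A2 had 59 regions over the 4 lines, RARA 54, RARG 35, CYP26B1 33, CRABP2 30, DHRS3 29, ALDH1A3 18, RARB 12, ALDH1A1 11 and CYP26A1 10.

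Each group held 3 libraries, labelled as biological triplicates, and 42 libraries formed 14 groups. Control cells grew without drug for 21 days and then with DMSO, the solvent, for 3 days. DTP (drug-tolerant persister) cells were grown for 24 days in 500 nM osimertinib, an EGFR inhibitor. Combo cells were kept in 500 nM osimertinib over 21 days and then exposed for 3 days to AZD5153, a bivalent BET bromodomain inhibitor, at 150 nM. Whether osimertinib was also present in those 3 days is not given in the labels. AZD5153 cells, present only for PC9 and H1975, grew without drug for 21 days and then in 150 nM AZD5153 for 3 days. Each line stands for 1 tumour, and the libraries are of whole cultures, so that a share of cells with an open region and the degree of opening per cell cannot be told apart.

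Library totals ran from 1724680 to 10062505 reads in the regions counted, lowest in HCC827 (1724680 to 4242868) and highest in H1975 (6200672 to 10062505). The 3 libraries of a PC9 group differed by about as much as counting noise, with a ratio of chi-square to degrees of freedom of 0.944 to 1.04 (above 1 in control and DTP cells), and those of H1975 were close to it at 0.967 to 1.23. The ratio was 1.41 to 2.06 in HCC2935 and 6.79 to 14.4 in HCC827. Because these ratios lie near 1, every comparison of single regions within PC9 and within H1975 was also run in another way. The 3 libraries of a group were counted as 1 sample and the spread was taken from HCC2935, here called the summed call. Read counts summed over a gene and comparisons between lines were not run in this way. Promoters of the epithelial markers EPCAM, CDH1, KRT8, KRT18 and KRT19 were open in control cells of all 4 lines, with EPCAM at 17.9 to 35.5 counts per 1000000 reads (CPM) and KRT8 at 26.1 to 54.9 CPM. Of 4 lung lineage markers, NKX2-1 had a promoter region in all 4 lines, NAPSA in 3, SFTPB in H1975 (15.04 CPM) and HCC827 (7.93 CPM) and SFTPC in 0. Among markers of other cells, PTPRC of leukocytes had none in any line, while COL1A1 of fibroblasts had one in all 4 (15.6 to 20.8 CPM), PECAM1 in 3 (4.30 to 7.03 CPM), CD3E in PC9 (7.89 CPM) and HCC2935 (10.2 CPM) and COL3A1 in H1975 and HCC2935 (6.02 and 7.26 CPM).

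Of the member regions, 141 were annotated to a promoter, 101 to an intron, 27 as distal, 16 to an exon and 6 to a UTR. All were 502 bases wide. The assignment to a gene is to the nearest annotated transcript start, and 74 of the 291 lie more than 50 kb from any RefSeq start of their own gene. Another 23 lie inside a different named gene, among them LIPC and AQP9 for regions assigned to ALDH1A2, and 27 lie in transcripts that the annotation does not name. Which gene such a region serves was not tested.

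The promoters of 4 genes are shown because RARB and CYP26A1 hold the direct repeats found among the members, and the starts of ALDH1A1 and ALDH1A3, which hold none, changed in DTP cells. The sequences are from RefSeq on GRCh38.p14, from 250 bases before to 50 after a transcription start, 5′ to 3′ on the strand of the gene. Capitals in RARB (chr3:25428013-25428312, plus strand) and CYP26A1 (chr10:93073643-93073942, plus strand) mark direct repeats of retinoid receptor half-sites. Capitals in ALDH1A1 (chr9:72953004-72953303, minus strand) mark CCAAT, and in ALDH1A3 (chr15:100879581-100879880, plus strand) GGGCGG on either strand.
RARB: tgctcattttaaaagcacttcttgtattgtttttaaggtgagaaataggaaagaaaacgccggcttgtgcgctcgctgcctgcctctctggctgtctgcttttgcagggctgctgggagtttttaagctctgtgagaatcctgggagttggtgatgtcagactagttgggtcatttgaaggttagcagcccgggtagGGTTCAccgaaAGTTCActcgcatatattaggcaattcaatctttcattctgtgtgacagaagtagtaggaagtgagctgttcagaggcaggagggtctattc
CYP26A1: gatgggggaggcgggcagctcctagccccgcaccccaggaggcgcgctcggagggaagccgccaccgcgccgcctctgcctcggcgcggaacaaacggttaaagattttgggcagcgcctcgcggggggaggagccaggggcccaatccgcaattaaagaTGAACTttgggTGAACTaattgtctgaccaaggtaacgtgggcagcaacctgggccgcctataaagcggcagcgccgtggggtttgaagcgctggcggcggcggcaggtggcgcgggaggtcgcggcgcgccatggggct
ALDH1A1: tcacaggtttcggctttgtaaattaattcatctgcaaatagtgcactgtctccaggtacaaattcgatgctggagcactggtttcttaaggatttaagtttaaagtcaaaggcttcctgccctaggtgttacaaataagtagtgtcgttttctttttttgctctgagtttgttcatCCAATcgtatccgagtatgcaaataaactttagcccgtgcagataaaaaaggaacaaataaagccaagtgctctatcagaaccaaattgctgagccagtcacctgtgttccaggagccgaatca
ALDH1A3: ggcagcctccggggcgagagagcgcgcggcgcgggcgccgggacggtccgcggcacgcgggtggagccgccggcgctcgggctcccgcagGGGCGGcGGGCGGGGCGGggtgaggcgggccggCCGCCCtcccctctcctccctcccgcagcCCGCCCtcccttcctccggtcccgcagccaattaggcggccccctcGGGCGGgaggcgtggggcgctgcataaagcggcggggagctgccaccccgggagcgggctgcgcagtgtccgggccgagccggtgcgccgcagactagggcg

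The half-sites searched on both strands were AGGTCA and its variants with G in place of the first letter, with T in place of the third letter, or with both, as pairs separated by 1, 2 or 5 bases (DR1, DR2, DR5). A DR5 was found in 2 of the 19 start windows of the member genes, at position 198 of the RARB window on the strand of the gene and at position 161 of the CYP26A1 window on the opposite strand. Over all 35116 start windows, 0.0883% held a DR5, 0.131% a DR1 and 0.0399% a DR2, and no member window held a DR1 or DR2. GC content was 81.7% in the ALDH1A3 window with 6 GGGCGG matches, 67.7% for CYP26A1, 46.7% for RARB and 40.3% for ALDH1A1. GGGCGG was present in 45.0% of all windows and in 8 member windows, CCAAT in 34.6% and in 6, and TATAAA in 11.5% and in 2. A match only describes the letters of these windows.

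Regions were tested by the edgeR quasi-likelihood F test over all regions of a line and counted as changed, or called, where the p adjusted by the Benjamini-Hochberg method was under 0.05. DTP cells were first compared with control cells, which asks how accessibility at these genes differed after prolonged EGFR inhibition. In H1975, 21 member regions of 86 rose and 38 fell, where 24.8% of all tested regions rose and 27% fell. HCC2935 had 25 of 85 higher and 19 lower, against 18.4% and 19% of all regions. In PC9, 6 of 85 rose and 18 fell, against 15.5% and 16.3%. In HCC827 no member was called in either direction, against 0.0207% and 0.00607% of all regions (17 and 5 regions). At an unadjusted p under 0.05 it was 0 higher and 2 lower of 35, against 5693 of 82309 regions in either direction.

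The summed calls were fewer, 14 of 85 in PC9 (4 higher and 10 lower) against 19% of all regions and 41 of 86 in H1975 (15 and 26) against 39.8%. The median log2 change of the members was -0.15 for PC9, -0.18 for H1975, -0.24 for HCC827 and 0.05 for HCC2935, and over all tested regions it was 0.02, 0.02, -0.01 and -0.02. Shares of members called were thus above the share of all regions in H1975 and HCC2935 and below it in PC9. All regions tested include many that the submitters left out of the annotated tables.

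Among the promoter regions, 1 per gene and line where listed, 3 of 9 rose and 3 fell in H1975, 4 of 9 rose in HCC2935, 1 of 8 fell in PC9 and 0 of 6 changed in HCC827. The ALDH1A2 region among the 4 of HCC2935 lies far from the RefSeq start of the gene. Of all annotated promoter regions, 26.0% rose and 27.0% fell in H1975, 20.8% and 15.3% did so in HCC2935, 15.1% and 14.5% in PC9 and 0% and 0.00612% in HCC827.

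**Figure D1:**
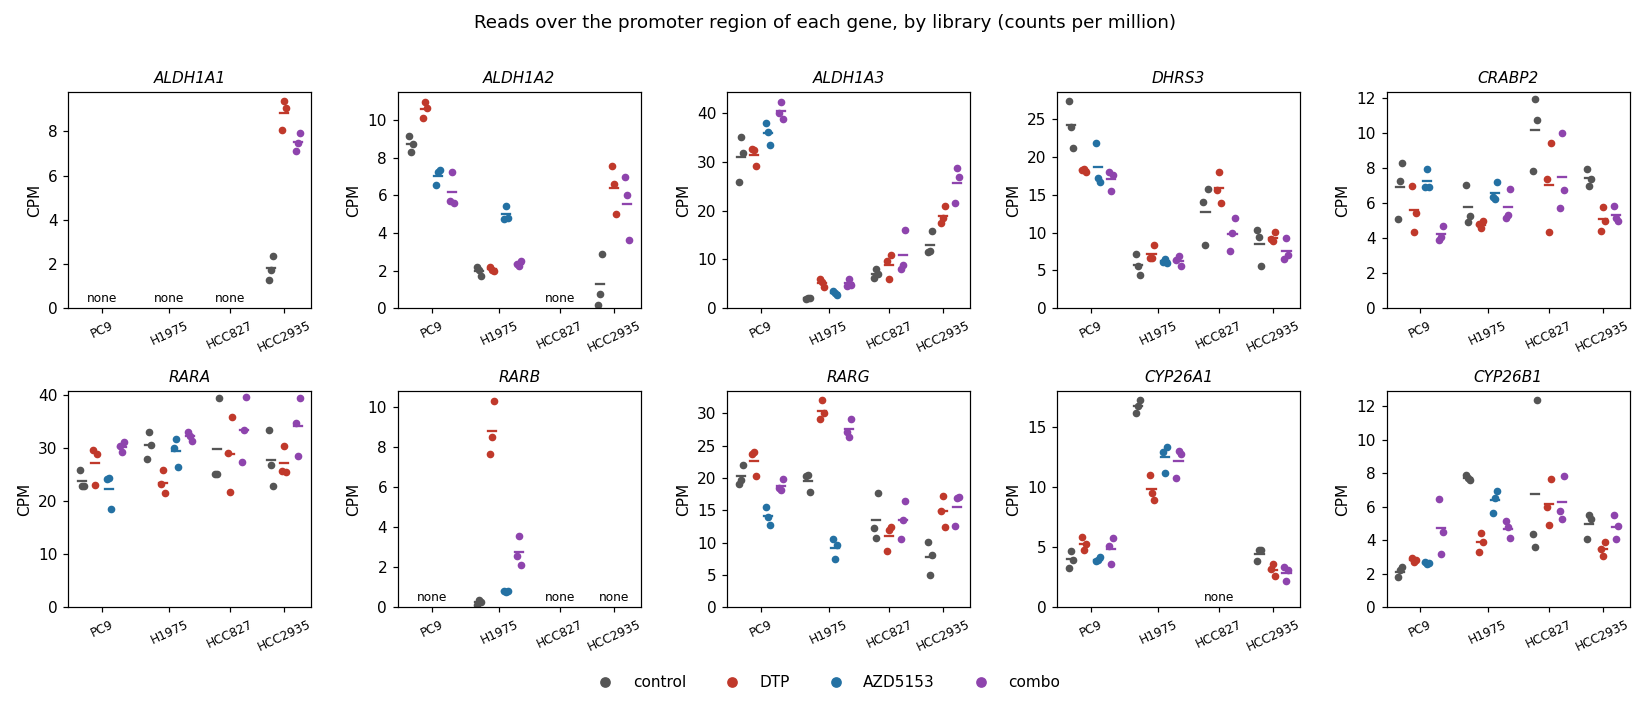
Accessibility of the promoter region of each of the 10 genes, in CPM on a linear axis from 0. Points are single libraries and bars the group means, coloured by group within each cell line, and lines with no annotated promoter region are marked none. RARB in H1975 rose from 0.138 to 0.361 CPM in controls to 7.66 to 10.3 CPM in DTP libraries.

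ALDH1A1 oxidises retinaldehyde and accounts for much of the aldehyde dehydrogenase activity measured in stem cell assays. Its clearest changes lay far upstream of the gene, where accessibility fell in DTP cells. In H1975 the region chr9:73100173-73100674, annotated as distal and 147 kb upstream of the RefSeq start, measured 45.8, 49.3 and 40.0 CPM in control libraries and 7.66, 9.02 and 7.69 CPM in DTP libraries. The groups did not overlap, and the difference was -2.46 on the log2 scale (SE 0.10, adjusted p 1.05e-65), the lowest adjusted p of any member that fell in H1975. The same site in HCC827 (start 73100161) measured 30.4, 17.6 and 24.0 CPM in control and 9.69, 7.62 and 7.64 CPM in DTP, again without overlap. It was not called without the replicate number as a block (log2 change -1.53, SE 0.41, adjusted p 0.231) and was called with it (adjusted p 0.00491), against 3.59% of all HCC827 regions called with the block. It was the 1 member region called there with the block.

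In HCC2935 the site (start 73100178) stood at 30.5, 14.2 and 28.4 CPM in control and at 16.4, 15.9 and 15.04 CPM in DTP. Control replicate 2 lay below all 3 DTP libraries, so that the groups overlapped, and the fitted change was -0.64 (SE 0.17, adjusted p 0.00231). A second region, 156 kb upstream, fell further in HCC2935, from 13.9, 14.98 and 10.8 CPM to 1.26, 1.93 and 1.294 CPM (log2 change -3.11, SE 0.28, adjusted p 1.81e-12). In H1975 this second region fell from 8.16, 6.61 and 8.19 CPM to 1.94, 1.93 and 0.799 CPM (log2 change -2.30, adjusted p 3.18e-20). Between them, a region 154 kb upstream was called in none of the 3 lines that list it and measured 6.22, 8.05 and 6.87 CPM in H1975 control against 5.38, 8.92 and 7.39 CPM in DTP.

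The start of ALDH1A1 itself was listed only in HCC2935, at chr9:72952824-72953325, which covers the sequence shown. There it rose, from 1.30, 1.75 and 2.37 CPM in control to 8.06, 9.39 and 9.06 CPM in DTP (log2 change 2.33, SE 0.29, adjusted p 7.58e-09), with no overlap. It stayed at 7.11, 7.48 and 7.94 CPM in combo cells. No control library and all 3 DTP and 3 combo libraries had a deposited peak over this start. An intronic region 26 kb from the start rose as well, from 1.48, 2.25 and 2.63 to 5.38, 7.73 and 6.15 CPM (log2 change 1.64, adjusted p 2.94e-05). In HCC2935 2 of the 6 ALDH1A1 regions thus rose, 2 distal ones fell and 2 were not called.

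ALDH1A2 is the retinaldehyde dehydrogenase that makes most retinoic acid in the embryo. Its 59 regions lie along chromosome 15 in and around the gene. In DTP cells 2 of 15 rose and 10 fell in H1975, where 24.8% and 27% of all regions did. In HCC2935 7 of 24 rose and 7 fell (18.4% and 19%), in PC9 2 of 17 rose and 4 fell (15.5% and 16.3%) and in HCC827 0 of 3 were called. In H1975 the intronic region at 58330107, 264 kb upstream of the RefSeq start, fell from 7.88, 5.89 and 7.71 CPM to 0.343, 0.304 and 0.499 CPM (log2 change -4.16, SE 0.30, adjusted p 3.11e-30). The same site in PC9 (start 58330082) went from 24.9, 28.4 and 27.6 to 17.5, 19.2 and 20.9 CPM, a log2 change of -0.50 called with 3 libraries (adjusted p 9.87e-05) and not as a summed call (0.128), and in HCC2935 (start 58330090) it measured 11.3, 4.24 and 6.05 CPM against 2.69, 1.10 and 2.43 CPM (log2 change -1.87, adjusted p 9.18e-06). DTP cells were thus lower in 3 lines at this site, and in each of them the control and DTP libraries did not overlap.

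Further ALDH1A2 regions changed in HCC2935 and PC9. In HCC2935 the region at 58284319 fell from 9.44, 6.74 and 11.6 to 1.897, 0.966 and 0.809 CPM (log2 change -2.90, adjusted p 1.23e-09). The HCC2935 promoter region by annotation (chr15:58473625-58474126) lies 408 kb from the RefSeq start and rose from 0.185, 0.749 and 2.89 to 7.59, 6.63 and 5.01 CPM (log2 change 2.47, SE 0.40, adjusted p 3.2e-06). Its control libraries held 1, 3 and 11 reads there, so that the size of this change is imprecise. In PC9 the same region measured 9.15, 8.32 and 8.73 CPM in control and 10.1, 10.97 and 10.6 CPM in DTP (log2 change 0.28, adjusted p 0.218). At the RefSeq start itself HCC2935 measured 1.11, 1.25 and 1.58 CPM in control and 1.11, 0.690 and 1.94 CPM in DTP and was not tested. PC9 measured 2.03, 1.62 and 1.59 CPM there against 3.11, 2.90 and 3.21 CPM (log2 change 0.82, adjusted p 0.0574). That start was not called in HCC827 (log2 change -1.09) and not tested in H1975. The PC9 region at 58266967 rose from 3.05, 1.83 and 3.18 to 6.42, 8.28 and 7.03 CPM (log2 change 1.43, adjusted p 5.66e-07, summed call adjusted p 0.000428).

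ALDH1A3, the isoform tied to aldehyde dehydrogenase activity in many carcinomas, was the dehydrogenase whose start was listed in all 4 lines. At that start, which lies over the GC-rich sequence shown, H1975 control libraries measured 1.94, 2.16 and 2.05 CPM and DTP libraries 5.95, 5.37 and 4.39 CPM (log2 change 1.34, SE 0.22, adjusted p 5.18e-08). HCC2935 had 11.5, 11.7 and 15.8 CPM in control and 17.6, 18.5 and 21.0 CPM in DTP (log2 change 0.56, SE 0.16, adjusted p 0.00442). Neither pair of groups overlapped. PC9 started higher, at 24.9, 26.0 and 31.4 CPM, and measured 29.8, 21.5 and 29.3 CPM in DTP (log2 change -0.04, adjusted p 0.831), and HCC827 measured 6.27, 7.98 and 7.11 against 9.69, 5.99 and 11.01 CPM (log2 change 0.34, adjusted p 1).

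Levels of the ALDH1A3 start in control cells thus ran from 1.94 to 2.16 CPM in H1975 to 24.9 to 31.4 CPM in PC9. It rose in H1975, with the lowest control level, and in HCC2935, with the second highest (mean 13.0 CPM). These levels were scaled within each line, and lines differ in copy number, so levels between lines also hold those differences. A second promoter region 1.83 kb upstream rose in H1975 from 1.52, 0.961 and 1.69 to 6.18, 5.37 and 4.49 CPM (log2 change 1.93, adjusted p 3.77e-12). In PC9 the promoter region chosen by annotation, at 100877480, did not differ between 25.9, 35.1 and 31.9 CPM and 32.7, 32.5 and 29.1 CPM beyond its error (log2 change 0.00, SE 0.10). An intronic region of HCC2935 (chr15:100890738-100891239) went the other way from the start, from 29.4, 25.2 and 24.2 CPM to 2.21, 3.04 and 2.75 CPM (log2 change -3.29, SE 0.20, adjusted p 2.37e-17), the lowest adjusted p of any member that fell in HCC2935.

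**Figure D2:**
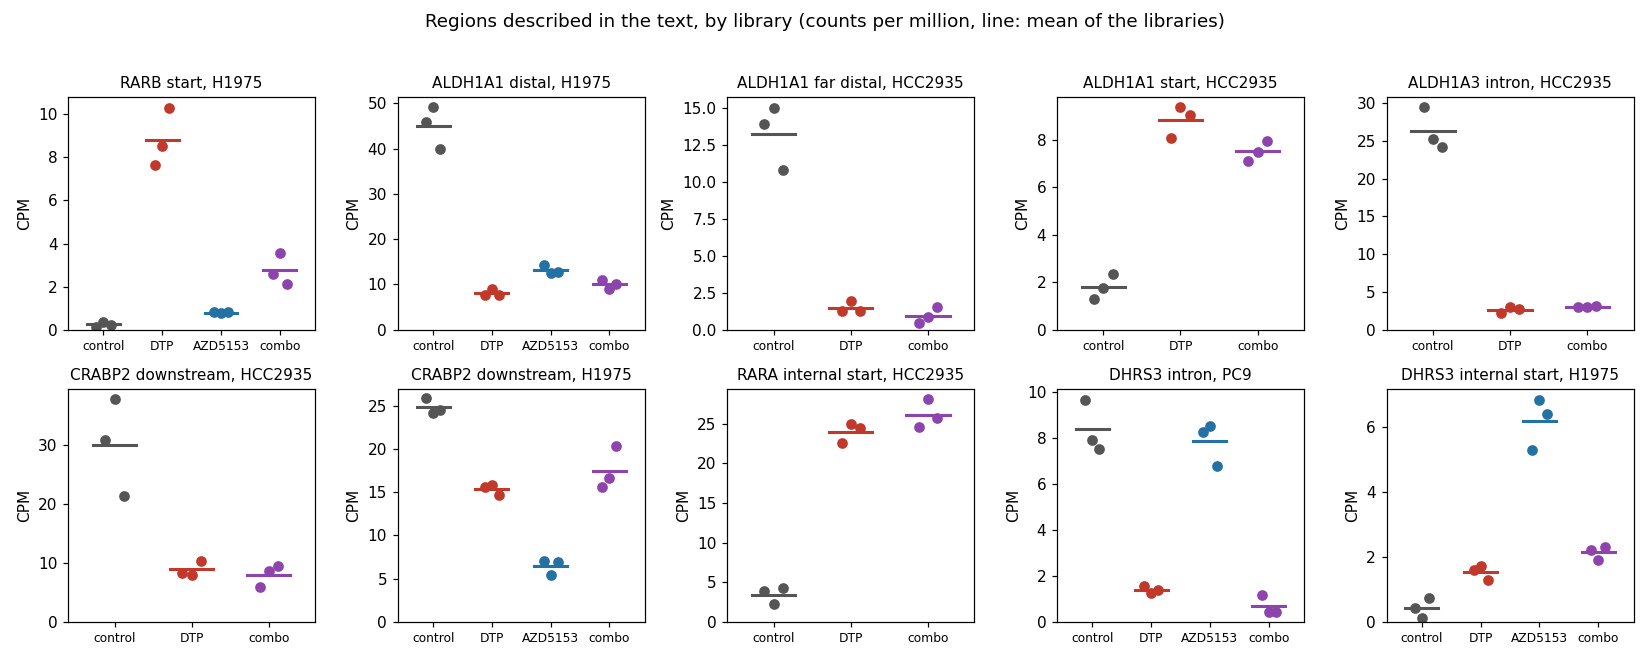
CPM in each library at member regions described in the text, grouped by cell line and treatment, on a linear axis from 0 with bars at the group means. In H1975 the distal ALDH1A1 region lies at 40.0 to 49.3 CPM in control and at 7.66 to 9.02 CPM in DTP libraries.

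DHRS3 returns retinaldehyde to retinol and so limits retinoic acid formation. An intronic region 7.7 kb upstream of a RefSeq start fell in 3 lines. In PC9 (start 12604279) it went from 9.66, 7.91 and 7.54 to 1.56, 1.24 and 1.41 CPM (log2 change -2.54, SE 0.29, adjusted p 3.91e-16). H1975 had 21.0, 17.5 and 18.2 against 8.01, 9.83 and 8.69 CPM (log2 change -1.09, adjusted p 5.64e-17). HCC2935 had 16.7, 20.7 and 17.4 against 12.2, 11.5 and 10.4 CPM (log2 change -0.68, adjusted p 0.00147). None of these groups overlapped. In HCC827 the site measured 10.97, 11.2 and 15.01 CPM in control and 5.54, 4.35 and 12.4 CPM in DTP and was not called, with DTP replicate 3 within the control range.

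A DHRS3 start fell in PC9 and rose in H1975 and HCC2935. In PC9 (start 12596437) it fell from 7.37, 7.30 and 8.73 to 5.06, 2.69 and 4.42 CPM (log2 change -0.94, adjusted p 0.000277, summed call adjusted p 0.0162). In H1975 (start 12596363) it rose from 6.78, 6.37 and 6.02 to 11.1, 11.96 and 11.3 CPM (log2 change 0.84, adjusted p 3.17e-08, summed call adjusted p 0.00446). In HCC2935 (start 12596358), where it was counted but not annotated, it rose from 1.48, 0.499 and 1.05 to 3.00, 2.90 and 2.26 CPM (log2 change 1.35, adjusted p 0.00812), and in HCC827 it was not called (log2 change -0.18). The most upstream DHRS3 start was called in no line. Its log2 change was -0.05 in PC9 (adjusted p 0.881), 0.11 in HCC2935 (0.708) and 0.09 in HCC827. In H1975 (start 12618217) it was near the threshold (log2 change 0.35, adjusted p 0.0576). There it was called higher with limma voom (0.0420) and with annotated regions only (0.00999). The PC9 promoter region at 12595806 measured 27.5, 23.9 and 21.2 against 18.3, 18.4 and 18.1 CPM, a log2 change of -0.39 that was called with 3 libraries (adjusted p 0.00463) and not as a summed call (0.264), after medians of surrounding regions were removed (0.167) or without control replicate 1 (0.0643).

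CRABP2 brings retinoic acid to its receptors. In DTP cells 7 of its 11 regions fell and 1 rose in H1975, where 27% and 24.8% of all regions did. In HCC2935 5 of 7 fell (19%), in PC9 3 of 8 (16.3%) and in HCC827 0 of 4 (0.00607%). The start region itself was called in no line, though in HCC2935 it was near the threshold (log2 change -0.55, adjusted p 0.0548) and was called lower with limma voom (0.0336), with annotated regions only (0.0169) and with regional medians removed (0.0198). In PC9 the region at 156692839, 12.4 kb downstream of the start inside an unnamed transcript, fell from 25.9, 29.2 and 27.6 to 14.02, 12.8 and 14.9 CPM (log2 change -0.99, SE 0.12, adjusted p 4.92e-14). In H1975 a region 0.389 kb past the start fell from 19.2, 17.9 and 16.9 to 7.66, 9.32 and 8.29 CPM (log2 change -1.09, adjusted p 4.01e-16), and one 7.45 kb upstream from 4.56, 5.41 and 5.06 to 0.915, 1.01 and 1.498 CPM (log2 change -2.11, adjusted p 1.69e-13).

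In HCC2935 the deepest CRABP2 fall was at 156697467, from 30.9, 37.9 and 21.3 to 8.38, 8.01 and 10.4 CPM (log2 change -1.76, SE 0.18, adjusted p 3.55e-11). The same site was the 1 CRABP2 region that rose, in H1975, from 2.21, 2.28 and 2.17 to 3.77, 3.75 and 5.19 CPM (log2 change 0.93, adjusted p 0.000247). Read counts summed over all regions of a gene gave CRABP2 a log2 change of -0.51 in PC9 (adjusted p 6.39e-15), -0.49 in H1975 (adjusted p 2.84e-19) and -1.02 in HCC2935 (adjusted p 7.37e-11). In HCC827 the sum changed by -0.78 (adjusted p 0.0647) and was called with the replicate block (adjusted p 0.00655).

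Of the receptors, RARB showed the largest relative change of any member. RARB is itself a retinoic acid target through the DR5 shown above. Its start in H1975 (chr3:25427902-25428403), which contains that DR5, measured 0.138, 0.361 and 0.241 CPM in control libraries, from 1, 3 and 2 reads, and 7.66, 8.51 and 10.3 CPM in DTP libraries, from 67, 84 and 103 reads. The start was therefore close to undetected in control cells and open in all 3 DTP libraries (log2 change 5.06, SE 0.32, adjusted p 5.17e-37, summed call adjusted p 2.94e-29). Only its DTP and combo libraries held enough reads for this region to pass the read-count filter for testing. No H1975 control library and all 3 DTP libraries had a deposited peak over it, with a −log10 q of up to 31.5. These peaks come from the same libraries and are not separate evidence. In PC9 the start was counted but not annotated and measured 2.80, 3.85 and 2.98 CPM in control and 2.73, 3.31 and 3.01 CPM in DTP (log2 change -0.10, adjusted p 0.829). A RARB intronic region of PC9 at 24725409 rose from 6.36, 5.27 and 6.15 to 12.7, 11.8 and 11.2 CPM (log2 change 1.01, adjusted p 1.04e-06).

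RARA, the most broadly expressed of the 3 receptors, had a main start that was open in every line, with control levels of 22.8 to 39.5 CPM. It was called in H1975, where 28.1, 33.2 and 30.6 CPM stood against 23.2, 25.8 and 21.6 CPM (log2 change -0.38, adjusted p 3.91e-05), and the summed call was lost (adjusted p 0.148). PC9 had a log2 change of 0.20 (adjusted p 0.132) that was called higher with a filter at a mean of 50 counts (0.0268), with annotated regions only (0.0496) and without DTP replicate 2 (0.0309). Another RefSeq start rose in HCC2935 (region 40341814), from a mean of 4.33 to 7.87 CPM (log2 change 0.85, adjusted p 0.00416), and was called in no other line. In HCC2935 a promoter region 3.28 kb past that start (chr17:40345444-40345945) rose from 3.89, 2.25 and 4.21 to 22.6, 24.99 and 24.4 CPM (log2 change 2.78, SE 0.19, adjusted p 9.15e-16), the lowest adjusted p of any member that rose in HCC2935. The site was listed in all 4 lines and was not called in the other 3, with 7.19, 9.98 and 8.07 CPM against 9.26, 10.9 and 9.19 CPM in H1975. HCC827 had 17.6, 37.9 and 36.3 against 15.7, 10.3 and 23.6 CPM there. In H1975 an intronic RARA region at 40332033 rose from 1.94, 1.68 and 1.81 to 6.86, 6.28 and 6.69 CPM (log2 change 1.86, adjusted p 1.41e-14).

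RARG, the receptor most abundant in skin and other epithelia, rose at a region over its start window in 2 lines. In H1975 the region at 53232370 measured 20.3, 20.4 and 17.8 CPM in control and 29.2, 32.1 and 30.1 CPM in DTP (log2 change 0.64, adjusted p 4.28e-11, summed call adjusted p 0.0184). A second H1975 region over the same start window, at 53231699, was not called, with means of 9.84 and 9.38 CPM (log2 change -0.06, SE 0.13, adjusted p 0.718). In HCC2935 the start region measured 10.2, 4.99 and 8.16 against 14.9, 17.3 and 12.5 CPM (log2 change 0.91, adjusted p 0.000314). A site 1.26 kb past the start in HCC2935 rose from 5.37, 3.49 and 5.79 to 10.6, 11.04 and 12.5 CPM (log2 change 1.20, adjusted p 1.92e-05), and in H1975 it rose from 3.60, 4.45 and 3.25 to 11.4, 12.9 and 13.1 CPM (log2 change 1.72, adjusted p 1.07e-21). At the RARG regions called higher here, control and DTP groups did not overlap. No RARG region was called in PC9 DTP cells. A promoter region of H1975 at 53216362 fell from 5.39, 5.89 and 6.14 to 0.343, 0.507 and 0.499 CPM (log2 change -3.64, adjusted p 4.24e-24).

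CYP26A1 clears retinoic acid and carries the other DR5. Its start in PC9, which contains that DR5, measured 3.31, 4.67 and 3.97 CPM in control and 5.84, 4.76 and 5.22 CPM in DTP and was not called (log2 change 0.39, SE 0.25, adjusted p 0.235). A region 2.93 kb past the start rose in PC9, from 1.78, 0.406 and 0.595 to 4.48, 5.59 and 4.22 CPM (log2 change 2.43, SE 0.37, adjusted p 4.71e-09, summed call adjusted p 1.96e-06), the lowest adjusted p of any member that rose in PC9. In H1975 the promoter region at 93071781 fell from 16.2, 16.7 and 17.2 to 10.98, 9.53 and 8.89 CPM (log2 change -0.78, adjusted p 1.03e-09), while a distal region 76.3 kb downstream rose from 1.38, 2.28 and 0.964 to 7.55, 11.05 and 9.89 CPM (log2 change 2.61, adjusted p 3.22e-26). These 2 H1975 regions moved apart, each without overlap.

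CYP26B1, the other retinoic acid hydroxylase, had the most accessible member site of the set, a distal region 32.1 kb downstream of its start. In PC9 (chr2:72115300-72115801) it fell from 62.8, 53.8 and 55.2 to 35.2, 35.6 and 28.3 CPM (log2 change -0.78, SE 0.08, adjusted p 1.23e-18, summed call adjusted p 0.00521), the lowest adjusted p of any member that fell in PC9. H1975 measured 54.2, 51.8 and 47.5 against 43.1, 43.2 and 43.4 CPM, a log2 change of -0.24 that was called with 3 libraries (adjusted p 0.00141) and not as a summed call (0.372) or with library size as the only scaling (0.375). HCC827 and HCC2935 were not called, with 21.0 to 41.6 CPM against 30.5 to 47.9 CPM and 45.9 to 55.0 against 40.8 to 49.1 CPM. Near it in H1975 a region at 72113033 fell from 4.29, 5.29 and 6.63 to 0.114, 0.101 and 0.499 CPM (log2 change -4.40, adjusted p 9.14e-25), with 1, 1 and 5 reads left in DTP libraries.

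A CYP26B1 region annotated as promoter (start 72144826 in H1975 and 72144816 in HCC2935) went in opposite directions. In HCC2935 it is not the promoter region nearest a start, which is the one plotted. It fell in H1975 from 7.88, 7.69 and 7.59 to 3.32, 4.46 and 3.89 CPM (log2 change -0.98, adjusted p 1.88e-07) and rose in HCC2935 from 6.66, 5.99 and 8.16 to 9.80, 10.6 and 13.1 CPM (log2 change 0.69, adjusted p 0.00534).

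**Figure D3:**
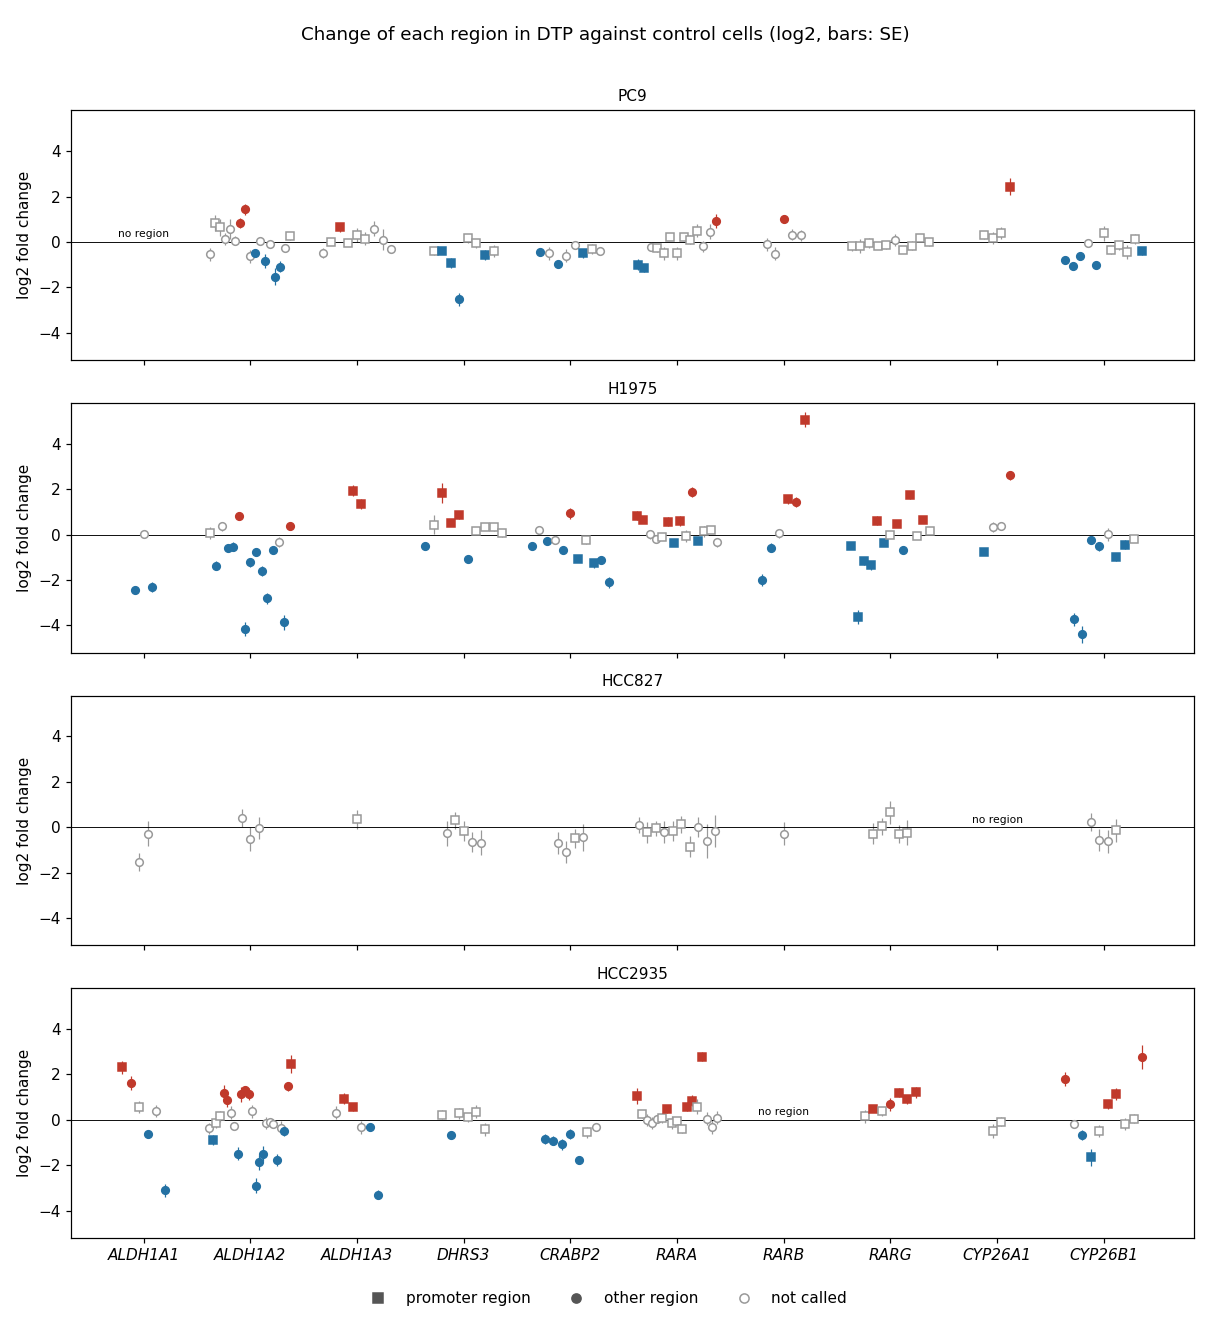
Log2 change between DTP and control cells of every member region, by gene and cell line, with regions called at an adjusted p under 0.05 marked apart from those not called. The RARB start of H1975, at 5.06, is the highest point, and CYP26B1 in H1975 reaches -4.40.

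Summed over all regions of a gene, all 10 genes were called in H1975, 6 higher and 4 lower, against 34.1% and 34.9% of all genes. ALDH1A1 fell by 1.70 on the log2 scale (SE 0.07, adjusted p 9.35e-46), and ALDH1A3 rose by 1.73 (SE 0.17, adjusted p 8.84e-18) and RARB by 0.80 (adjusted p 1.48e-15). The ALDH1A1 sum of H1975 holds 3 regions, all far upstream and none annotated to a promoter. In PC9 2 genes rose and 3 fell, against 19.5% and 22.7% of all genes, with CYP26B1 at -0.57 (adjusted p 1.09e-27), DHRS3 at -0.49 (adjusted p 1.36e-11) and CYP26A1 at 0.50 (adjusted p 3.94e-05). In HCC2935 2 rose and 3 fell, against 25.2% and 25.2%, with RARG at 0.66 (adjusted p 1.09e-06). ALDH1A1 was called at -0.25 (adjusted p 0.0445) but not with the replicate block (0.0517) or library size only (0.146). Sums over promoter regions alone turned the direction of 3 of these calls. In HCC2935 ALDH1A1 was then 1.30 (adjusted p 3.94e-07) and ALDH1A3 0.57 (adjusted p 0.000428) where all regions gave -0.45. In H1975 CYP26A1 was -0.73 (adjusted p 2.98e-09) where all regions gave 0.28.

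In HCC827, where 1.1% of all genes rose and 1.34% fell, ALDH1A1 was the 1 gene of 9 listed that was called, at -1.32 (SE 0.28, adjusted p 0.0327; with the block 0.000293). Its 2 summed regions, both far upstream and neither annotated to a promoter, averaged 71.2 CPM in control and 30.1 CPM in DTP. No gene was called when any 1 of the 6 control and DTP libraries was left out, and without combo replicate 1 or 3, which also enter the spread, 2 genes were.

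Further comparisons ask what AZD5153 did, in cells without prior drug and after osimertinib. In H1975, AZD5153 alone changed 64 of 86 member regions, 21 higher and 43 lower, against 26.7% and 31.4% of all regions, and 48 in the summed call against 47.7%. In PC9 it changed 23 of 85, 10 higher and 13 lower, against 11.3% and 14.5%, and 10 in the summed call against 13.7%. Between combo and DTP cells, 10 regions were higher and 4 lower in H1975 against 11.5% and 9.5%, with 3 in the summed call against 5.65%. In PC9 11 were higher and 14 lower against 10.7% and 11.6%, with 10 in the summed call against 7.7%. HCC2935 had 2 higher and 5 lower against 2.37% and 6.03%, and HCC827 had 0 of 35 against 0% and 0% of all regions. At an unadjusted p under 0.05 HCC827 had 0 members in either direction, against 1816 of 82309 regions. If osimertinib was absent while combo cells received AZD5153, combo against DTP also holds its removal, and so does the difference between AZD5153 changes. The 2 cannot be told apart here, and changes with AZD5153 in osimertinib-treated cells are to be read with this limit. Comparisons of AZD5153 and of DTP with control share the control libraries, and those of combo with DTP and of DTP with control share the DTP libraries.

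Across H1975, 57 members had an AZD5153 change that differed between osimertinib-treated and drug-free cells, 42 in the positive and 15 in the negative direction, against 24.4% and 18.2% of all regions. The summed call kept 36 of 86 against 30.4%. In PC9 it was 3 and 5 regions against 7.32% and 6.46%, with 0 in the summed call against 4.6% of all regions.

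The distal ALDH1A1 region of H1975 fell with AZD5153 alone to 14.3, 12.6 and 12.8 CPM (log2 change -1.76, adjusted p 3.02e-48), the lowest adjusted p among members. Combo cells measured 10.9, 9.02 and 10.1 CPM there, next to 7.66 to 9.02 CPM in DTP cells, and the difference between both AZD5153 changes was 2.06 (adjusted p 2.92e-26). The RARB start measured 0.807, 0.778 and 0.815 CPM with AZD5153 alone, from 7, 5 and 8 reads, against 0.138 to 0.361 CPM in control (log2 change 1.62, SE 0.60, adjusted p 0.0144). The call was lost without control replicate 1 (log2 change 1.33, adjusted p 0.0745). In combo cells it fell to 2.58, 3.56 and 2.11 CPM from the 7.66 to 10.3 CPM of DTP cells (log2 change -1.69, SE 0.18, adjusted p 1.55e-15, summed call 1.27e-06), between the control and the DTP level and without overlap with either. The difference between the AZD5153 changes was -3.31 (SE 0.62, adjusted p 1.63e-06).

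Near the DHRS3 start of H1975, regions rose with AZD5153 alone that were low in control cells. The region at 12593466 rose from 0.830, 0.841 and 0.723 to 7.04, 8.56 and 7.64 CPM (log2 change 3.24, SE 0.26, adjusted p 7.37e-26). The region at 12595053 rose from 0.415, 0.120 and 0.723 to 5.31, 6.85 and 6.42 CPM (log2 change 3.83, adjusted p 2.84e-24) and reached 1.60, 1.72 and 1.30 CPM in DTP and 2.23, 1.89 and 2.31 CPM in combo cells. Its AZD5153 change thus differed by -3.35 between osimertinib-treated and drug-free cells (SE 0.48, adjusted p 6.06e-10).

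CRABP2 regions fell with AZD5153 in both lines. The PC9 region at 156692839 fell to 12.1, 10.0 and 11.1 CPM with AZD5153 alone (log2 change -1.32, adjusted p 3.95e-22) and from 14.02, 12.8 and 14.9 CPM in DTP to 5.49, 5.54 and 5.36 CPM in combo cells (log2 change -1.35, adjusted p 3.12e-11), both kept in the summed call. The H1975 region at 156694051 fell from 25.9, 24.2 and 24.5 to 7.04, 5.45 and 6.93 CPM with AZD5153 alone (log2 change -1.91, adjusted p 2.63e-37). In osimertinib-treated H1975 cells it measured 15.6, 15.8 and 14.7 CPM without and 15.6, 16.6 and 20.3 CPM with AZD5153, so the changes differed by 2.11 (SE 0.16, adjusted p 2.65e-28).

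At the start of RARG, AZD5153 alone lowered accessibility in both lines. The H1975 start region at 53232370 fell to 10.5, 7.47 and 9.68 CPM with AZD5153 alone (log2 change -1.05, adjusted p 8.18e-16), whereas it rose in DTP cells. The PC9 start (53232194) fell from 19.1, 19.7 and 22.0 to 15.6, 13.9 and 12.8 CPM (log2 change -0.53, adjusted p 0.000366), a call that was lost as a summed call (0.138). The PC9 RARA region at 40311647 fell from 14.2, 13.2 and 10.1 to 3.31, 6.41 and 7.03 CPM in DTP and further to 0.784, 1.49 and 1.286 CPM in combo cells (log2 change -2.22, adjusted p 4.16e-09). The PC9 region of ALDH1A3 at 100885209 measured 2.14, 1.45 and 0.803 CPM in DTP and 7.25, 5.32 and 6.86 CPM in combo cells (log2 change 2.12, SE 0.30, adjusted p 5.18e-10). An intronic ALDH1A2 region of PC9 at 58193278 rose with AZD5153 alone from 1.27, 1.01 and 1.19 to 5.57, 4.46 and 6.397 CPM (log2 change 2.22, adjusted p 1.94e-09).

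**Figure D4:**
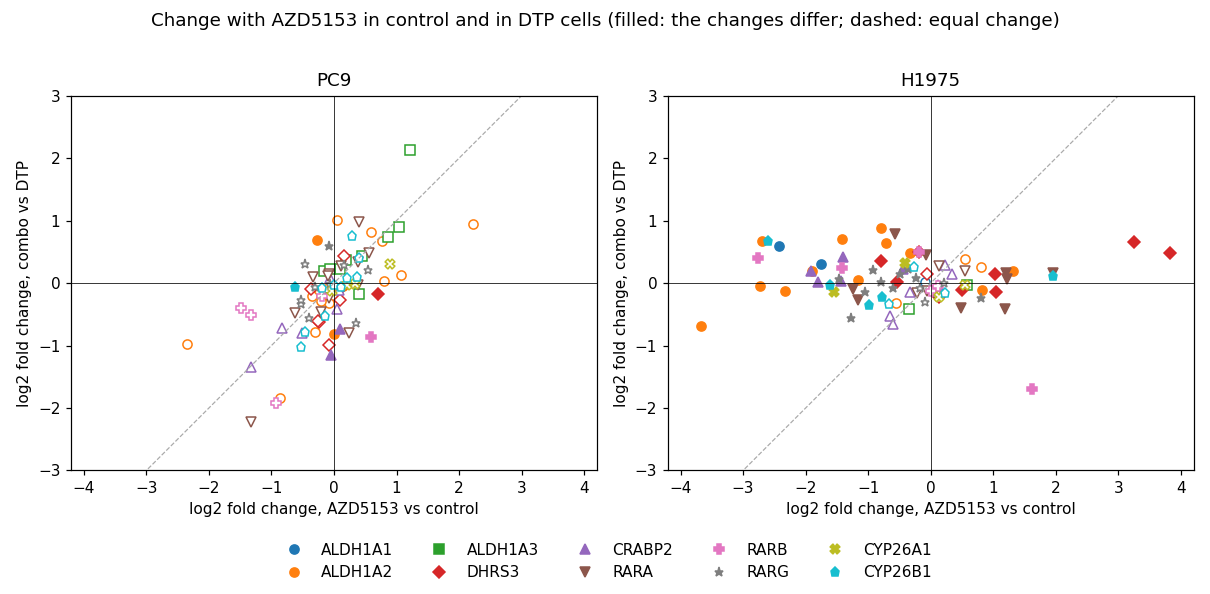
Log2 change of each member region with AZD5153 in osimertinib-treated cells plotted against its log2 change with AZD5153 alone, for PC9 and H1975, with regions whose changes differ at an adjusted p under 0.05 marked. In H1975 57 of 86 regions are marked and in PC9 8 of 85.

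In H1975 the combo rise with the lowest adjusted p was at the RARA region 40316526, from 9.61, 8.41 and 11.4 to 18.4, 16.4 and 16.4 CPM (log2 change 0.79, adjusted p 3.06e-09, summed call 0.0232). The ALDH1A3 start of HCC2935 rose again in combo cells, to 21.5, 28.8 and 26.9 CPM (log2 change 0.44, SE 0.13, adjusted p 0.0292), a call that was lost without DTP replicate 1 (adjusted p 0.192), 2 (0.148) or 3 (0.0549) or combo replicate 2 (0.227) or 3 (0.105). A CYP26B1 region of HCC2935 inside EXOC6B, at 72204349, rose from 0.370, 0.749 and 0 CPM in control to 3.16, 2.76 and 2.26 CPM in DTP and to 5.06, 7.36 and 7.08 CPM in combo cells (combo against DTP log2 change 1.25, adjusted p 0.00145). The HCC2935 ALDH1A2 region at 58260900 rose from 8.33, 4.99 and 6.84 to 16.4, 14.9 and 19.7 CPM in DTP and fell to 9.17, 10.3 and 10.7 CPM in combo cells (log2 change -0.75, adjusted p 0.00189).

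To compare lines, 68 member regions were matched over all 4 tables of counted regions, each pair sharing no less than 50% of both regions. A matched region was taken as a member where any line's annotation assigned it to a member gene. It need not be annotated, or assigned to that gene, in every line. The DTP change differed between lines at 35 of the 68, where 40.3% of 79508 matched regions did. They were 7 of 12 for ALDH1A2, 7 of 16 for RARA, 4 of 9 for DHRS3, 4 of 6 for CYP26B1, 3 of 7 for RARG, 3 of 4 for ALDH1A3, 2 of 5 for CRABP2, 2 of 5 for CYP26A1, 2 of 2 for RARB and 1 of 2 for ALDH1A1. By pairs of lines, PC9 and H1975 differed at 26 (20.5% of all matched regions), PC9 and HCC827 at 7 (7.77%) and PC9 and HCC2935 at 10 (13.1%). H1975 and HCC827 differed at 13 (18.2%), H1975 and HCC2935 at 19 (25.7%) and HCC827 and HCC2935 at 10 (8.81%).

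The matched region with the highest mean level was taken for each gene, as group means in CPM normalised over the 4 lines. ALDH1A3 went from 45.7 to 46.6 in PC9, 3.41 to 9.01 in H1975, 13.7 to 16.5 in HCC827 and 23.0 to 32.1 in HCC2935 (adjusted p of any line difference 0.00102). DHRS3 went from 40.3 to 31.6, 28.4 to 42.1, 24.2 to 30.1 and 13.1 to 14.7 (adjusted p 0.000441). DHRS3 was thus lower in PC9 DTP cells and higher in H1975 DTP cells than in the respective controls. In the fits within a line, neither change was kept as a summed call (adjusted p 0.264 in PC9 and 0.0644 in H1975). ALDH1A2 went from 16.9 to 43.3 in HCC2935 and from 36.6 to 31.4 in PC9 (adjusted p 5.77e-05). CYP26A1 in PC9 went from 17.3 to 22.1, whereas H1975 went from 27.8 to 16.9 (adjusted p 0.000258).

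CYP26B1 in PC9 went from 95.3 to 57.2, and in HCC827 from 58.9 to 67.6 (adjusted p 0.000655). CRABP2 in PC9 went from 30.5 to 29.3, and in H1975 from 41.3 to 26.4 (adjusted p 0.0194). For RARB the matched PC9 region went from 7.87 to 5.56 and the H1975 region from 0.570 to 3.31 (adjusted p 0.000142). No line difference was called at the highest matched region of RARA (adjusted p 0.0592), RARG (0.119) or ALDH1A1 (0.22).

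The 68 matched members were also compared between lines in control cells. Lines differ in copy number, which these comparisons hold, so that copy number and accessibility cannot be told apart here. PC9 and H1975 differed at 39 of 68 (59.8% of all matched regions), PC9 and HCC827 at 36 (48.1%) and PC9 and HCC2935 at 34 (52.7%). H1975 and HCC827 differed at 37 (53.5%), H1975 and HCC2935 at 43 (58.4%) and HCC827 and HCC2935 at 35 (42.5%).

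**Figure D5:**
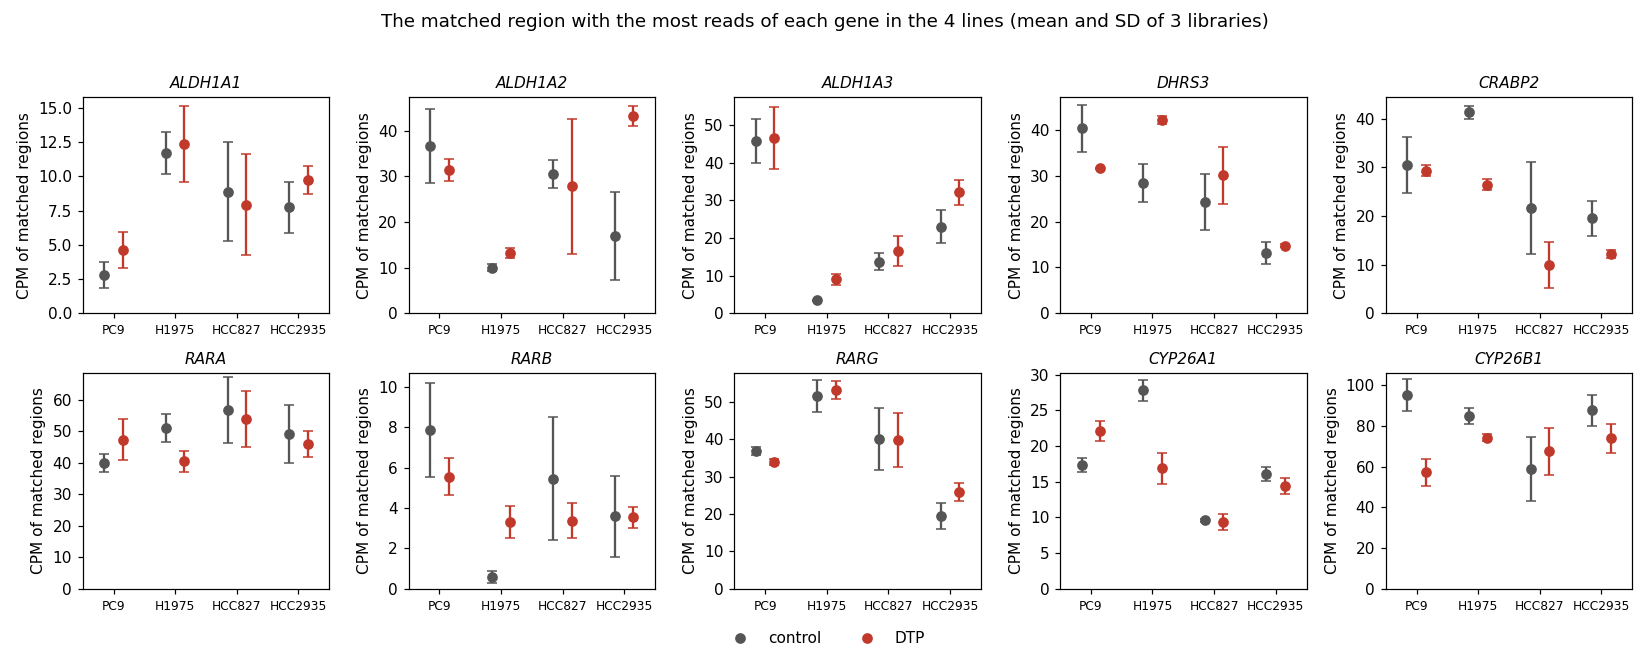
Mean CPM in control and DTP cells of the matched region with the highest level of each gene, by cell line. The ALDH1A2 region lies far from the RefSeq start of that gene. For DHRS3 the PC9 points stand at 40.3 and 31.6 and the H1975 points at 28.4 and 42.1, and bars are the SD of 3 libraries.

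The deposited peak lists, which come from the same libraries and are not separate evidence, gave the same promoters as present or absent per library. Of 339 pairs of a library and a member promoter region, 301 had a peak that overlapped by at least 1 base, 265 with a −log10 q of at least 5. The number of peaks per library ran from 29402 to 224437 and moves with what a library can detect. The HCC2935 region annotated as ALDH1A2 promoter, far from the RefSeq start, had a peak in 1 of 3 control, 3 of 3 DTP and 3 of 3 combo libraries. The RARB start of H1975 had one in 0 of 3 control, 3 of 3 DTP, 1 of 3 AZD5153 and 3 of 3 combo libraries.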

How the data were processed

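The authors deposited, per cell line, a table of raw read counts in regions of fixed width and a subset of it with gene annotation, and per library a peak list in which the q value of a peak is given as −log10 together with a fold enrichment. The build hg38 and the tools BWA 0.7.17, SAMtools 1.9, deepTools 3.4, MACS2 2.2.6, featureCounts 2.0.0 and ChIPseeker 1.29.1 are named in the submitters' processing notes, without their roles. The samples' titles name ATAC-seq. Their extraction text is that of an H3K27ac ChIP, a mismatch not resolved here, and the titles were followed.

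Counts of each line (after filterByExpr, PC9 kept 126506 regions, H1975 191202, HCC827 82309 and HCC2935 154179) were fitted with edgeR 4.0.16 in R 4.3.3, all groups in 1 fit with TMM factors, and tested by the quasi-likelihood F test with Benjamini-Hochberg adjustment over all regions tested. All 291 member regions passed the filter. CPM values are counts per 1000000 reads with TMM factors. A prior count of 2 was used only where CPM was put on the log2 scale. The log2 changes are those of the fits, with the prior left at the edgeR default. DESeq2 1.42.0, limma 3.58.1 (voom), other scalings and filters, left-out libraries and summed libraries were alternatives. The procedure was tested on simulated counts with known changes. Library totals set the precision and p-values measure the spread between libraries, which may be technical where cultures were not separate. Libraries of HCC827 with the same replicate number deviated together (r 0.261 to 0.828 over 9 pairs), so a fit with that number as a block is given where it changes a call.

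The members, the gene lists and the rules were chosen with earlier results of these data known. Named were, for each gene and line, the annotated promoter region nearest a start, for each line and comparison the member region with the lowest adjusted p in each direction, and for each gene the region matched in all 4 tables with the highest mean CPM. Other regions named were chosen after their values were seen.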

Additional observations from a re-analysis of the deposited data

Results flagged for a closer look

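The DTP change differed between cell lines, by a test of the difference itself, at 35 of the 68 matched member regions, against 40.3% of all matched regions. At the matched region with the highest level, the adjusted p of such a difference was 0.000441 for DHRS3, 0.0194 for CRABP2, 0.000258 for CYP26A1, 5.77e-05 for ALDH1A2, 0.00102 for ALDH1A3, 0.000655 for CYP26B1 and 0.000142 for RARB. The AZD5153 change differed between osimertinib-treated and drug-free cells at 57 of 86 member regions in H1975 and at 8 of 85 in PC9. Of all regions, 24.4% differed in the positive and 18.2% in the negative direction in H1975, and 7.32% and 6.46% in PC9. None of the 8 was kept when libraries of a group were summed, where 4.6% of all PC9 regions were called.

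In PC9 the ALDH1A2 regions at 58330082 and 58469800 had differences of 0.96 and -0.82 on the log2 scale (adjusted p 4.4e-08 and 0.000309, summed call 0.0683 and 0.213). In H1975 the difference was 2.11 at the CRABP2 region 156694051 and -3.35 at the DHRS3 region 12595053, both kept when libraries were summed. No group of 4 to 10 libraries existed, so single libraries were not tested for standing apart.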

How the results depend on the processing

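Of 311 alternative values for the 18 counts reported, 270 lay within 1.5 times the main count and 41 did not, and of 3963 for 192 region-by-comparison values at 72 named regions 3778 kept direction and side of the threshold, 136 lost the call, 47 gained it and 2 reversed. Both lie at the matched RARG region 53220713 of H1975, where the AZD5153 change of -0.24 became 0.10 with regional medians removed, and the difference between AZD5153 changes of 0.32 became -0.012 with the filter at a mean of 50 counts, neither of them called there. Counting error, library numbers and the near-identical PC9 libraries limit these values. Library size as the only scaling moved the median log2 change of all regions by 0.17 in H1975 DTP, 0.16 in H1975 AZD5153, -0.23 in the H1975 difference between AZD5153 changes and 0.10 in HCC2935 DTP.

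With regions of a mean of at least 50 counts only, fewer members were tested and the calls were 9 (PC9 DTP), 7 (PC9 combo), 9 (PC9 AZD5153), 5 (PC9 difference between AZD5153 changes), 28 (H1975 DTP), 26 (H1975 AZD5153), 24 (H1975 difference), 18 (HCC2935 DTP) and 4 (HCC2935 combo). DESeq2 gave 12 (PC9 combo), 14 (PC9 AZD5153), 4 (PC9 difference), 7 (H1975 combo) and 3 (HCC2935 combo), and no filter gave 16 (PC9 combo), 9 (H1975 combo) and 3 (HCC2935 combo), and the cause was not tested. The share of all regions called under these settings is not given. These counts therefore do not show whether members lost more calls than other regions. Summed libraries gave 14, 10, 10 and 0 in PC9 for DTP, combo, AZD5153 and the difference, and 3 (combo) and 36 (difference) in H1975. At least 50% of the promoter covered left 169 of 339 pairs of a library and a promoter region with a peak, where any overlap gave 301.

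The replicate block gave 1 member region and 2 genes in HCC827, where promoter regions alone gave 0 genes. Replicate numbers of PC9 (r -0.010 to 0.013), H1975 (-0.062 to 0.015) and HCC2935 (-0.074 to 0.206) did not pair libraries, and with the block their DTP counts were 25, 59 and 44. Leaving out 1 replicate gave 18 to 26, 18 to 25, 17 to 23 and 6 to 9 regions in PC9 for DTP, combo, AZD5153 and the difference, 52 to 58, 9 to 14, 57 to 64 and 52 to 59 in H1975, 0 to 0 in both HCC827 comparisons, and 35 to 42 (DTP) and 3 to 7 (combo) in HCC2935. Genes called were 5 to 6 in PC9, 10 to 10 in H1975, 0 to 2 in HCC827 and 4 to 5 in HCC2935. The low counts were 9 in H1975 combo without DTP replicate 1 or 3, and in HCC2935 combo 4 without DTP replicate 1 or combo replicate 2 and 3 without DTP replicate 2 or combo replicate 3.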

Other observations

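Promoters of other genes of the retinoid pathway were counted in lists, to be read beside all annotated promoter regions, of which 26.0% rose and 27.0% fell in H1975 DTP cells, 20.8% and 15.3% in HCC2935, 15.1% and 14.5% in PC9 and 0% and 0.00612% in HCC827. Of 25 genes of retinoid uptake, binding and oxidation, 18 had a promoter region in H1975, of which 7 rose and 7 fell in DTP cells (median log2 change 0.06). In HCC2935 4 of 16 rose and 2 fell (median 0.17), in PC9 0 of 17 rose and 5 fell (median -0.11) and in HCC827 0 of 11 were called. RBP2, an intestinal retinol carrier, fell from 6.20 to 1.46 CPM in PC9 (log2 change -2.05, adjusted p 1.54e-09) and from 14.04 to 5.71 CPM in H1975 (log2 change -1.29, adjusted p 4.64e-17). RDH12, a retinal reductase, fell in PC9 from 4.90 to 2.68 CPM (log2 change -0.82, adjusted p 0.0154) and in H1975 from 22.8 to 16.5 CPM (log2 change -0.45, adjusted p 1.68e-05). BCO2, a carotenoid-cleaving enzyme, rose in H1975 (log2 change 0.72, adjusted p 8.65e-05) and HCC2935 (log2 change 0.82, adjusted p 0.01).

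Of 9 retinoid X receptors and cofactors, 4 of 7 with a promoter region rose in H1975 and 1 fell (all promoters 26.0% and 27.0%), 3 of 7 rose in HCC2935 (20.8%) and 0 of 7 were called in PC9 and in HCC827. RXRA, the partner of the retinoic acid receptors, rose from 1.12 to 2.49 CPM in H1975 (log2 change 1.14, adjusted p 0.000812) and from 9.50 to 16.2 CPM in HCC2935 (log2 change 0.80, adjusted p 0.000761). With AZD5153 alone H1975 measured 10.1 CPM there.

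Among 15 retinoic acid responsive genes, 4 rose and 2 fell of 10 in PC9 (all promoters 15.1% and 14.5%), 1 rose and 3 fell of 7 in H1975 (26.0% and 27.0%), 0 of 9 were called in HCC827 and 1 rose and 3 fell of 10 in HCC2935 (20.8% and 15.3%). NR2F1, an orphan nuclear receptor, fell in 3 lines, from 13.9 to 6.77 CPM in PC9 (log2 change -1.04, adjusted p 4.85e-08), 25.5 to 10.2 CPM in H1975 (log2 change -1.32, adjusted p 2.82e-26) and 21.4 to 14.6 CPM in HCC2935 (log2 change -0.55, adjusted p 0.00313). RARRES2, which encodes chemerin, fell in H1975 (log2 change -1.55, adjusted p 1.85e-25) and HCC2935 (-0.84, adjusted p 0.00888) and rose in PC9 (1.33, adjusted p 0.00588).

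Of 15 other aldehyde dehydrogenases, 2 of 15 rose and 1 fell in PC9, 2 of 14 rose and 5 fell in H1975, 0 of 12 were called in HCC827 and 0 of 14 rose and 5 fell in HCC2935. ALDH1L1, a folate enzyme, fell in H1975 (log2 change -1.14, adjusted p 5.11e-06) and HCC2935 (-0.78, adjusted p 0.0158) and rose in PC9 (0.57, adjusted p 9.86e-05), and ALDH3B2 fell in PC9 (-0.53, adjusted p 1.68e-05) and HCC2935 (-0.77, adjusted p 5.12e-05).

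Promoters of other genes were ranked by Pearson r with each matched member promoter over the 14 group means of log2 CPM, among 21793 promoter regions, as a description with no test, since groups of 1 line resemble each other and the points are not independent. Most like the ALDH1A3 start were LLGL2 (r 0.978) and AMOTL1 (0.976), most like the RARA promoter AKTIP (0.931) and KIAA0895L (0.926), and most like the RARG promoter COBL (0.939) and ADAM17 (0.921). For CRABP2 they were AMT (0.946) and DAPK3 (0.942), and for CYP26A1 GRAMD1B (0.956) and ANLN (0.944).

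Promoters of marker genes were counted in the same way. Of 4 lung lineage markers, 0 of 3 with a promoter region rose and 2 fell in H1975 DTP cells (median log2 change -1.29), 2 of 2 fell in HCC2935 (median -0.83), and 0 of 2 were called in PC9 and in HCC827. Of 5 epithelial markers 1 rose and 1 fell in PC9, 1 rose and 2 fell in H1975, 0 were called in HCC827 and 1 fell in HCC2935. Of 6 markers of other cells, 1 of 3 fell in PC9 and in H1975, 0 of 2 were called in HCC827 and 1 of 3 rose and 1 fell in HCC2935. Their part in the changes of the retinoid genes was not tested.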
